A study of Mus musculus with 16 samples.

Results

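Splenic CD8 T cells with an effector transcript set were chosen by raw UMI counts in single-cell RNA libraries of CD8+ cells sorted from mouse spleen. A barcode was a member when it held at least 1 UMI of Cd8a or Cd8b1, at least 1 UMI of Cd3e, Cd3d or Cd3g, at least 2 UMIs of the chemokine gene Ccl5, and at least 2 UMIs over the granzyme gene Gzma and the lectin receptor gene Klrg1 together. Barcodes with a UMI of the NK cell genes Ncr1 or Klrb1c or of the dendritic cell gene Siglech, or with more than 1 UMI of the B cell gene Cd79a, were left out. The rule selected 388 of the 10399 CD8 T cells, which came from 10856 barcodes in 4 libraries. These cells are called effector cells here. The name is a description of their transcripts and was not checked by function or by surface protein.

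The series compared mice that carry or lack Aire, the gene with which thymic epithelium displays tissue antigens to developing T cells, under treatment with an antibody to PD1 or an isotype control. All mice carried tumors of MC38, a mouse colon carcinoma line, and were C57BL/6 animals bought at 8 weeks of age, dosed at 5 mg/kg and killed on day 19. The 4 libraries of CD8+ spleen cells came first from Aire+/+ mice, 1 given isotype and 1 given anti-PD1, and then from Aire-/- mice, again 1 given isotype and 1 given anti-PD1. Spleens were pooled within each condition, so that no value has a replicate check between conditions and no p-value was computed. Values for the 4 libraries are given below in that order unless stated otherwise. Most CD8 T cells of a spleen are resting and circulate through lymphoid tissue. Cells that have responded to antigen keep granule proteins and chemokines ready, and the receptors they carry set whether they stay in blood, in lymphoid tissue or in peripheral organs. The tumor and spleen libraries allow the same transcript set to be read in both places.

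Aire itself had 0 UMIs in the effector, memory-like, Ccl5-negative and tumor cells of every library, so that it does not check the genotype labels. The libraries held 2902, 2966, 2355 and 2633 barcodes with 20137112, 19210780, 15624058 and 16286885 UMIs. Barcodes and those passing the filter stated by the study were equal in number to its stated cell counts. The median UMIs per barcode were 6401, 6291.5, 6267 and 5797, with the Aire-/- anti-PD1 library the shallowest. Of the cells, 2761, 2838, 2269 and 2531 were CD8 T cells by the same gene limits without the Ccl5, Gzma and Klrg1 part of the rule. Effector cells numbered 40, 30, 165 and 153. Their UMIs summed to 297137, 166150, 1061101 and 1018056, and the Aire+/+ values therefore rest on far fewer molecules than the Aire-/- values. Between 8 and 13 barcode sequences were shared by any pair of these libraries, and 0 of them were effector cells in both.

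Effector cells were set beside 2 other groups of CD8 T cells from the same libraries. Memory-like cells had at least 2 UMIs of Ccl5 and 0 of Gzma and Klrg1, and numbered 392, 376, 321 and 363. Ccl5-negative cells had 0 UMIs of Ccl5, Gzma and Klrg1, and numbered 2178, 2278, 1654 and 1871. Effector cells were the shallowest of the 3 groups, with median UMIs of 4744, 4643.5, 5245 and 4965 against 8233, 7938, 8096 and 7288 in memory-like and 6132, 6096, 6090 and 5610 in Ccl5-negative cells. Every interval given is a 95% interval and covers counting error only.

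The label was first read against its markers. Ccl5 stood at 15525, 20855, 22728 and 20164 CPM in effector cells, and Gzma at 3709, 5699.7, 7196 and 6714 CPM. Both are rule genes and were high in every library, Gzma lowest in the Aire+/+ isotype library. Klrg1, a receptor of terminally differentiated T cells and also part of the rule, was at 145, 223, 508 and 169.9 CPM, highest in the Aire-/- isotype library. The remaining markers were not used by the rule. Itgb1, the integrin beta 1 chain, was at 1245, 1113, 797 and 1392 CPM, against 46.9, 38.1, 46.3 and 64.5 CPM in Ccl5-negative cells. S1pr5, a sphingosine phosphate receptor used to leave tissue, was at 80.8, 144, 292 and 89.4 CPM and had 0 UMIs in the Ccl5-negative cells of all 4 libraries. Both markers were thus higher in effector cells in all 4 libraries. Cd8b1 was present in each of the 388 cells, at 2527, 2275, 2534 and 2675 CPM.

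Most members passed the limit by Gzma. At least 2 Gzma UMIs were found in 371 cells (95.6%), 14 cells had no Gzma UMI, 203 had no Klrg1 UMI and 171 had both genes. The median effector cell held 123 Ccl5 UMIs, far from the limit of 2. The cells nearest the other limit were 37 members with a Gzma and Klrg1 sum of 2 or 3, which had 21278 CPM of Ccl5, 336 of Gzmb and 1007 of Itgb1. Outside it, 52 cells with a sum of 1 had 13092, 106 and 566 CPM of these genes, between the members and the memory-like cells. A further 12 cells passed the Gzma and Klrg1 limit with 0 or 1 UMI of Ccl5. The 37 members near the limit were 11, 4, 8 and 14 of the 40, 30, 165 and 153 effector cells, most frequent in Aire+/+ isotype. They had 112 CPM of Cx3cr1 and 103 of S1pr5, against 317 and 184 in the other 351 members, which had 922 of Gzmb. The gene ratios between conditions below include these 37 cells. No effector cell failed the study's stated filter, and 3, 1, 10 and 12 of them held more than 2.5 times the median UMIs of their library.

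Marker lists of other cell types were read in the effector cells. Over all genes compared with Ccl5-negative cells, 6.53% were past 2-fold higher and 1.08% past 2-fold lower in all 4 libraries. The 10 NK cell markers summed to 1272, 1198, 861 and 1063 CPM, mostly Cd7 and Il2rb, genes that T cells also express, with Ncr1 and Klrb1c at 0 by the rule. Of 7 NK markers compared with Ccl5-negative cells, 2 were past 2-fold higher (Klre1 and Il2rb). The 9 B cell markers summed to 131, 66.2, 53.7 and 181 CPM, with Cd74 the most abundant and Ms4a1 and Fcmr at 0 in all 4 libraries. In Ccl5-negative cells the B cell sum was 483, 338, 135 and 178 CPM, and 2 of 5 compared genes were past 2-fold lower in effector cells (H2-Aa and H2-Eb1). The 9 myeloid markers summed to 273, 349, 261 and 304 CPM, with Cst3 the most abundant and Lyz2, Csf1r, S100a8 and S100a9 at 0 in all 4 libraries. The Ccl5-negative cells had a myeloid sum of 391, 349, 262 and 288 CPM, and 2 of 4 compared genes were higher in effector cells (Cd68 and Itgam).

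The CD4 T cell markers, 6 genes, summed to 40.4, 84.3, 49.0 and 66.8 CPM with Il2ra or Cd40lg the most abundant, and Cd4 and Foxp3 were at 0 in 3 of the 4 libraries. Zbtb7b and Il2ra were the 2 of 5 compared genes past 2-fold higher than in Ccl5-negative cells. The 8 erythroid and platelet markers summed to 26.9, 0, 1.88 and 4.91 CPM, mostly Hbb-bs, and 0 of 4 compared genes were past 2-fold. The Aire+/+ isotype library also had the highest erythroid sum in Ccl5-negative cells, at 354.3 CPM against 1.22, 3.10 and 1.83 CPM in the others. Innate-like T cell genes summed to 199, 72.2, 127 and 116 CPM, with Cd160 the most abundant and Zbtb16, the factor of innate-like T cells, at 0 in both Aire+/+ libraries. None of the 5 compared genes of that list was past 2-fold. Only 7 of its 11 symbols have a row, and constant genes of the gamma-delta T cell receptor are among those without one. The list is therefore an incomplete check for innate-like T cells.

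The first comparison asks how large the effector group was in each spleen. Most CD8 T cells in these libraries lacked effector transcripts, and the share that held them is read within CD8 T cells. Effector cells were 1.45% (1.04 to 1.97) of CD8 T cells in Aire+/+ isotype, 1.06% (0.714 to 1.51) in Aire+/+ anti-PD1, 7.27% (6.24 to 8.42) in Aire-/- isotype and 6.05% (5.15 to 7.05) in Aire-/- anti-PD1 spleens. Both Aire-/- libraries were above both Aire+/+ libraries. The Aire-/- share was 5.02 times (3.53 to 7.28) the Aire+/+ share under isotype and 5.72 times (3.85 to 8.76) under anti-PD1. With no limit on other-cell markers the Aire+/+ shares were 2.071% and 1.595%, and the genotype ratios 3.70 and 3.86. The anti-PD1 share was 0.730 (0.439 to 1.20) of the isotype share in Aire+/+ and 0.831 (0.663 to 1.04) in Aire-/- mice. Both intervals include 1 and cover counting error only. With 1 library per condition a treatment difference was not tested. The 4 ratios given with intervals share libraries and are given side by side.

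Memory-like cells, which also express Ccl5 but neither Gzma nor Klrg1, were 14.2%, 13.2%, 14.1% and 14.3% of CD8 T cells. Their Aire-/- over Aire+/+ ratio was 0.996 (0.857 to 1.16) with the isotype antibody and 1.08 (0.935 to 1.25) with anti-PD1. The larger Aire-/- share was thus seen in effector cells and not in memory-like cells of the same libraries. The libraries of CD45+ spleen cells, which the rule did not use, gave 1 of 149, 2 of 169, 8 of 157 and 9 of 204 CD8 T cells. Whether they were sorted from the same pools of mice is not stated, so that they may be the same animals captured again. Summed over treatments, 17 of 361 Aire-/- cells and 3 of 318 Aire+/+ cells passed, a ratio of 4.99 (1.44 to 26.6), against 0.967 (0.650 to 1.44) for memory-like cells. With 1 library per condition and sort, the genotype and the pool of mice cannot be told apart.

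**Figure D1:**
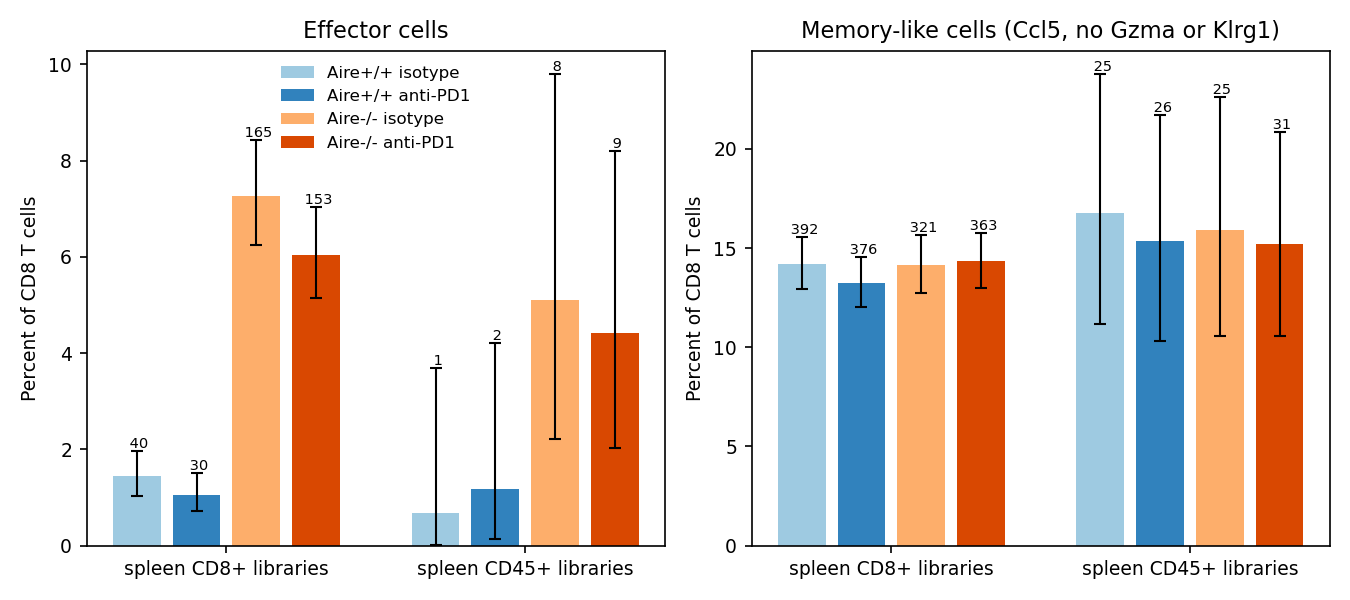
Percent of CD8 T cells that were effector cells (left) and memory-like cells (right) in the 4 spleen CD8+ and the 4 spleen CD45+ libraries, with bars for the value, lines for the Clopper-Pearson 95% interval and the number of cells above each bar. Effector cells made up 7.27% and 6.05% of CD8 T cells in the Aire-/- CD8+ libraries and 1.45% and 1.06% in the Aire+/+ ones.

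The next comparison sets effector cells beside Ccl5-negative cells of the same library and describes which programs go with the rule. A resting CD8 T cell expresses the chemokine receptor Ccr7 and the transcription factors that hold it in that state. An effector cell expresses granule proteins, receptors shared with NK cells and a set of integrins, calcium-binding and cytoskeletal genes. Since the rule chose cells on this contrast, the counts are a description of it. Of 10273 genes with at least 50 UMIs, 671 (6.53%) were past 2-fold higher and 111 (1.08%) past 2-fold lower in all 4 libraries, 782 (7.61%) in either direction and among them 3 rule genes. A side at 0 was set to 3 UMIs and counted only where that bound lay on the side of the difference, and 2080 genes had no ratio in at least 1 library for this reason. The median log2 ratio over genes with a ratio in every library was 0.30. Scaling by median of ratios moved it to -0.05, with 477 genes higher and 237 lower. With cells thinned to 2000 UMIs 379 were higher and 52 lower. Leaving out the Aire+/+ anti-PD1 library, which had the fewest effector cells, raised the lower count to 214 and the higher count to 793.

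Granule genes were read first. Gzmk, a granzyme of circulating effector and memory cells, was at 236, 355, 529.6 and 541 CPM in effector cells and had 1, 0, 3 and 4 UMIs in Ccl5-negative cells. Gzmb, the granzyme most tied to killing, was at 717, 704, 1013 and 794 CPM against 4.99, 1.22, 1.65 and 0.457 CPM. Prf1, which encodes the pore protein perforin, was at 151, 211, 161 and 150.3 CPM, log2 ratios of 2.21, 2.87, 2.19 and 1.99. All 3 genes were higher in effector cells of every library, perforin by the least. Of 14 granule and killing genes without Gzma, 10 were higher and 0 lower, with a median log2 ratio of 2.34 beside the all-gene median of 0.30. List counts here and below leave out the genes that the rule reads.

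Lectin receptors shared with NK cells followed. Klrc1, the NKG2A chain, was at 653, 644, 762 and 841 CPM against 0.642, 1.002, 0.968 and 0.822 CPM, and Klrk1, the activating receptor NKG2D, at 427, 644, 567 and 666 CPM against 2.07, 1.93, 1.65 and 1.55 CPM. Klre1, an NK lectin, had 0, 0, 1 and 0 UMIs in Ccl5-negative cells and 41, 47, 171 and 179 in effector cells. Both Klrc1 and Klrk1 were higher in effector cells in every library, Klrc1 from 643-fold to 1023-fold and Klrk1 from 207-fold to 429-fold. Of 5 NK lectin receptors with enough UMIs, Klrg1 left out, 4 were higher and 0 lower, with a median of 9.11. The full list held 20 symbols, and genes such as Klre1 reached 50 UMIs only through the effector cells where they are high. The 9.11 is therefore no measure of the whole list. Inhibitory receptors and Tox, genes of repeated stimulation, were higher in 5 of 10 (Pdcd1, Lag3, Havcr2, Tigit and Entpd1) and lower in 0, with a median of 4.20. Among the rest Tox itself had a median log2 ratio of -0.71 and Btla of -2.16, with Ctla4 at 0.23 and Cd160 at 1.90. Pdcd1, the target of the antibody, was 1 of the 5, at 33.7, 90.3, 21.7 and 50.1 CPM and log2 ratios of 3.49, 5.60, 4.64 and 4.24.

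Trafficking receptors also set effector cells apart from resting ones. Cx3cr1, a chemokine receptor of cells that patrol vessels, was at 162, 343, 381 and 246 CPM in effector cells and had 8, 3, 0 and 1 UMIs in Ccl5-negative cells. Ccr2, a receptor for recruitment to inflamed tissue, had log2 ratios of 8.54, 9.48, 7.53 and 7.77. S1pr5 was at least 377-fold, 673-fold, 1006-fold and 326-fold higher, bounds that set its 0 UMIs in Ccl5-negative cells to 3. Ccr7, a chemokine receptor that guides cells within lymphoid tissue, had log2 ratios of -4.18, -4.12, -5.17 and -4.51. Ccr7 was therefore low and the receptors for vessels and tissue high in each library. Of 18 trafficking and adhesion receptors, 14 were higher and 0 lower, with a median of 2.70, and of 11 naive cell genes 0 were higher and 9 lower, with a median of -3.66.

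Transcription factors showed the same division. Tbx21, the T-bet gene that drives effector fate, was at 215, 205, 299 and 247 CPM against 3.50, 2.93, 5.52 and 5.21 CPM, and Zeb2, its partner in terminal effector cells, at 74.0, 138, 196 and 81.5 CPM. Bhlhe40, a factor for cytokine output, had log2 ratios of 9.77, 9.09, 7.77 and 8.50. Tcf7, which keeps cells in a resting and self-renewing state, was at 77.4, 30.1, 37.7 and 40.3 CPM against 344, 342, 333 and 361 CPM. The effector factors were higher and Tcf7 lower in all 4 libraries. Of 12 effector factors, 7 were higher and 0 lower, with a median of 3.62, and of 12 naive and memory factors 0 were higher and 4 lower (Tcf7, Lef1, Bach2 and Satb1), with a median of -1.57.

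Calcium-binding, annexin and cytoskeleton genes formed the broadest group, with 18 of 20 higher, 0 lower and a median of 3.02. S100a6, a calcium-binding protein of motile cells, was at 3911, 4231, 3029.9 and 5106 CPM against 25.8, 12.02, 30.9 and 38.0 CPM. Ifitm1, a membrane protein that restricts viral entry, was at 2464, 4725, 1541 and 2870.2 CPM against 1.498, 2.79, 7.16 and 0.183 CPM. Both genes were higher in effector cells in every library. The broader interferon response list had a median of 0.17, close to the all-gene median of 0.30. Of its 16 genes 3 were higher (Mx1, Ly6a and Ifitm3) and 0 lower, a larger share higher than the 6.53% of all genes. Igfbp4, a gene of resting CD8 T cells, had 0, 0, 1 and 2 UMIs in effector cells against 289, 289.6, 242 and 262 CPM in Ccl5-negative cells.

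Other lists were smaller or mixed. Cytokine and chemokine genes other than Ccl5 were higher in 5 of 10 and lower in 1 (Ltb, a lymphotoxin gene), with a median of 1.69, and cytokine receptors higher in 6 of 16 and lower in 1 (Il4ra), with a median of 0.55. Tissue residency genes were higher in 3 of 8 (Itga1, Cxcr6 and Rgs1) and lower in 0, with a median of 1.27. Survival genes were higher in 5 of 9 and lower in 1, Bcl2, with a median of 1.60. None of 12 T cell receptor signalling genes and none of 14 immediate early genes was past 2-fold, with medians of 0.51 and -0.04. The B cell, myeloid, CD4 T cell, NK cell and innate-like lists had medians of -1.75, 1.76, 3.43, 0.99 and 0.54, and no erythroid gene had a ratio in every library.

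**Figure D2:**
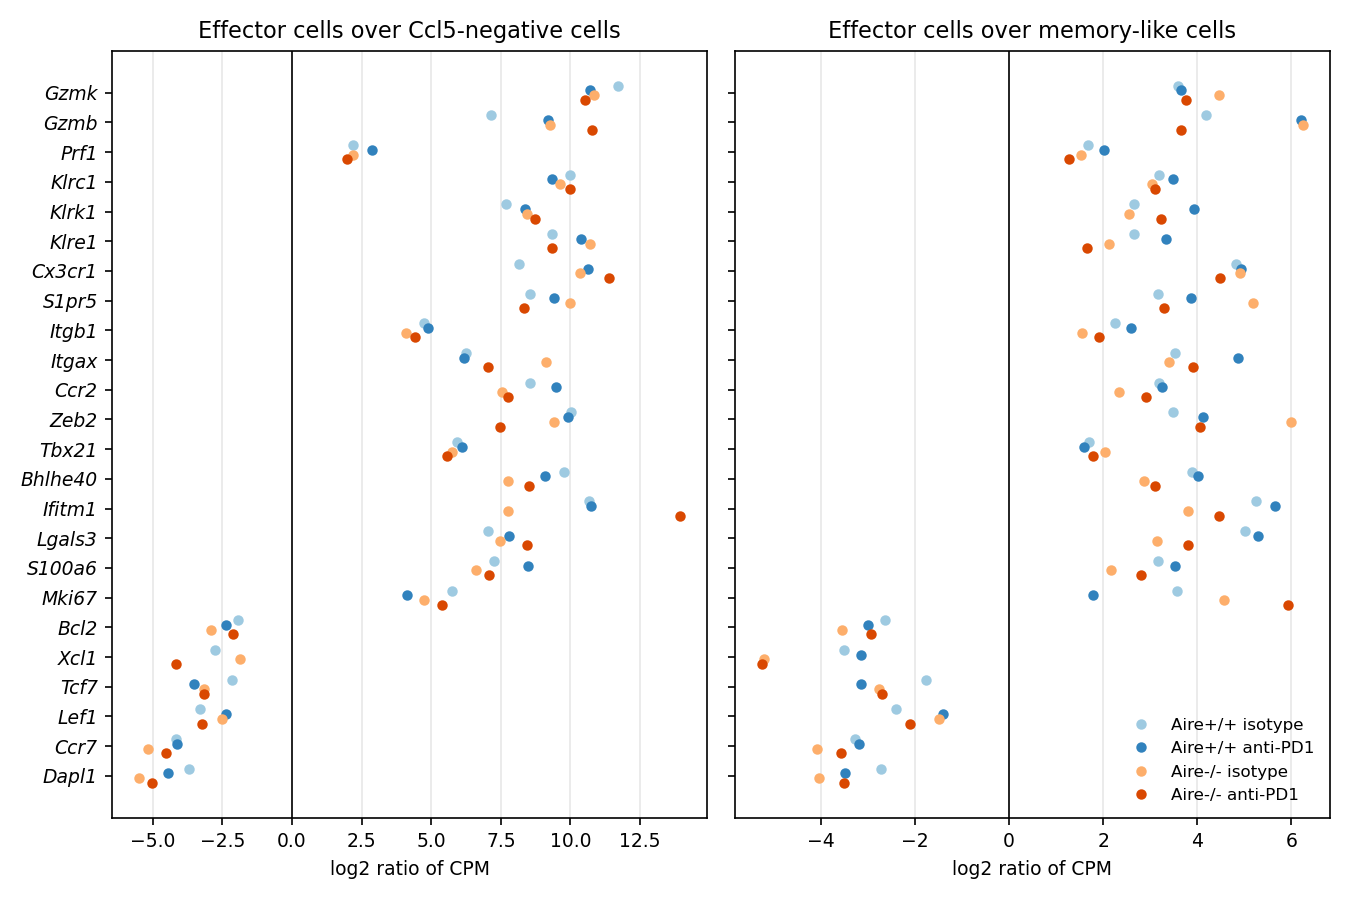
Log2 ratio of CPM in effector cells over Ccl5-negative cells (left) and over memory-like cells (right) for 24 genes, 1 point per spleen CD8+ library, with a side at 0 set to 3 UMIs and no point where that gives no bound. Gzmk, Cx3cr1 and S1pr5 lie to the right of 0 and Ccr7 and Dapl1 to the left in all 4 libraries.

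Memory-like cells give a closer comparison, because they too express Ccl5. Such cells have met antigen or cytokine, yet hold Bcl2, the survival factor. What sets effector cells apart from them is less tied to Ccl5 but still to the Gzma and Klrg1 limit. Of 9049 genes, 403 (4.45%) were past 2-fold higher and 82 (0.906%) past 2-fold lower in effector cells of all 4 libraries, 485 (5.36%) in either direction with 3 rule genes among them, and 998 genes had no ratio in at least 1 library. The median over genes was 0.31. Median-of-ratios scaling moved it to -0.04 with 255 higher and 187 lower genes. With cells thinned to 2000 UMIs 161 were higher and 35 lower. Without the Aire+/+ anti-PD1 library 148 genes were lower and 483 higher.

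Gzmk was at 19.5, 28.2, 24.1 and 40.1 CPM in memory-like cells, log2 ratios of 3.60, 3.66, 4.46 and 3.76 for effector cells. Cx3cr1 had 5.69, 11.3, 12.6 and 10.96 CPM there and log2 ratios of 4.83, 4.93, 4.91 and 4.49. S1pr5 had 8.98, 9.95, 8.04 and 9.07 CPM and log2 ratios of 3.17, 3.86, 5.18 and 3.30. The vessel and exit receptors were thus much lower in memory-like than in effector cells of each library, with S1pr5 furthest apart in the Aire-/- isotype library. Itgb1 differed by less, at 260.2, 185, 271 and 371 CPM in memory-like cells and log2 ratios of 2.26, 2.59, 1.56 and 1.91.

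Bcl2 was at 57.2, 48.1, 25.4 and 44.2 CPM in effector cells against 353.6, 384, 298 and 336 CPM in memory-like cells. Xcl1, a chemokine that attracts cross-presenting dendritic cells, had 2, 0, 0 and 0 UMIs in effector cells against 76.3, 159.8, 105 and 112 CPM. Tnfsf8, the CD30 ligand, had 1 UMI in each effector population, with log2 ratios of -4.35 (-9.66 to -1.86), -3.19 (-8.51 to -0.70), -6.12 (-11.43 to -3.62) and -6.14 (-11.45 to -3.64). All 3 genes were lower in effector cells in every library.

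Among the genes furthest above memory-like cells were Itgam, the integrin alpha M chain, with log2 ratios of 6.08, 5.77, 5.88 and 4.84, and the cell cycle genes Ccnb1 and Cdkn3. Itgam rested on 6, 6, 24 and 11 UMIs in effector cells and on 1 or 2 in memory-like cells, and its intervals were wide, as from 3.03 to 11.60 in the Aire+/+ isotype library. Of 17 cell cycle genes 14 were higher and 0 lower, with a median of 3.72, of 20 S100, annexin and cytoskeleton genes 18 and 0, with a median of 1.80, and of 18 trafficking receptors 11 and 0, with a median of 1.43. Granule genes other than Gzma were higher in 8 of 14 and lower in 0, with a median of 1.39, and effector factors higher in 7 of 12 and lower in 0, with a median of 2.25. Naive cell genes were lower in 6 of 11 and naive and memory factors in 4 of 11, with medians of -2.89 and -1.51. Of 10 NK lectin receptors without Klrg1, 4 were higher and 1 lower, Klra7, an inhibitory Ly49 receptor, with a list median of 0.99. Interferon response, T cell receptor signalling and immediate early genes had medians of 0.24, 0.33 and -0.00.

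Shares of single cells with a UMI were read beside B cells of the CD45+ spleen libraries. They serve as a background only for genes that B cells do not transcribe. These B cells come from other captures with few effector cells, so that their level of free RNA need not be that of the CD8+ libraries. Ccl5-negative cells of the same CD8+ libraries were therefore read as well. The B cells had median UMIs of 4222, 4162, 4438 and 4283.5, close to the 4744, 4643.5, 5245 and 4965 of effector cells. Cx3cr1 was found in 52.5%, 66.7%, 73.9% and 66.0% of effector cells in 0.275%, 0.132%, 0% and 0.0534% of Ccl5-negative cells and in 0.437%, 0.282%, 0.301% and 0.119% of B cells, where the 0 allows up to 0.223%. Gzmb was found in 80.0%, 80.0%, 77.6% and 79.7% of effector cells in 0.505%, 0.351%, 0.302% and 0.1603% of Ccl5-negative cells and in 0.146%, 0.0706%, 0.0752% and 0.179% of B cells. Both shares were far above those of Ccl5-negative cells of the same library, that of Gzmb nearly equal in all 4.

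S1pr5 was found in 25.0%, 46.7%, 57.0% and 29.4% of effector cells, 5.10%, 5.32%, 4.36% and 4.13% of memory-like cells and 0.291%, 0.212%, 0.226% and 0.298% of B cells. The Aire-/- isotype library had the highest share of effector cells. After thinning every cell to 2000 UMIs, which left out 0, 1, 2 and 3 effector cells and 13, 51, 29 and 16 B cells as too shallow, S1pr5 was found in 20%, 31.03%, 41.1% and 18% of effector cells and in 0.147%, 0.0733%, 0.231% and 0.120% of B cells. Thinned shares were 37.5%, 44.8%, 52.8% and 42.0% for Cx3cr1 and 57.5%, 65.5%, 61.96% and 60% for Gzmb, against B cell shares of 0.147%, 0%, 0.231% and 0.0601% for Cx3cr1 and 0.147%, 0%, 0% and 0.120% for Gzmb, where a 0 allows up to 0.283%. The order of the libraries for S1pr5 was the same at both depths except for the lowest pair. S1pr5 with Klrg1 was found in 124 of the 388 cells and S1pr5 without Klrg1 in 39.

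Dividing cells are rare among resting CD8 T cells, and expansion of an effector population is read from genes of the cell cycle. At least 1 UMI of Mki67 or Top2a, genes of dividing cells, was present in 6, 5, 32 and 29 effector cells, or 15.0%, 16.7%, 19.4% and 19.0%. Over all libraries this was 72 of 388 cells, 18.6% (14.8 to 22.8). The share was 2.16%, 1.49%, 2.24% and 1.76% in Ccl5-negative, 5.61%, 5.32%, 5.296% and 5.51% in memory-like and 3.28%, 3.25%, 2.11% and 2.44% in B cells. B cells divide as well, so that they are no background for these 2 genes. Thinned to 2000 UMIs, which left out 0, 1, 2 and 3 effector cells, the effector shares were 5%, 6.897%, 11.7% and 10.7%, against 0.781%, 0.445%, 0.855% and 0.594% in Ccl5-negative and 2.06%, 1.47%, 0.615% and 0.962% in B cells. Against Ccl5-negative cells 15 of 17 cell cycle genes were past 2-fold higher and 0 lower, with a median log2 ratio of 4.77. Effector shares were above those of Ccl5-negative cells of the same library at both depths, with 5 or 6 cells behind each Aire+/+ value at full depth and 2 after thinning.

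The same rule applied to CD8+ cells from the tumors of the same conditions gave 300, 293, 318 and 506 cells, 1417 in all, with median UMIs of 8670, 8553, 8175.5 and 7192. They were 12.5%, 14.3%, 18.4% and 23.7% of tumor CD8 T cells. The Aire-/- shares were thus also the larger in tumor, by a smaller factor than in spleen. This comparison asks what differs between spleen and tumor among cells with the same few transcripts. Cells in a tumor meet antigen, interferon and inhibitory ligands, and cells in the spleen are exposed to blood. Tumors were digested with enzymes and spleens were dispersed mechanically, and the effect of this on the transcripts cannot be told apart from that of the tissue. Of 9332 genes, 210 (2.25%) were past 2-fold higher and 263 (2.82%) past 2-fold lower in spleen in all 4 conditions, 473 (5.07%) in either direction with 3 rule genes among them, and 1153 had no ratio in at least 1 condition. The median over genes was 0.21, and median-of-ratios scaling brought it to -0.005 with 134 genes higher and 346 lower. With cells thinned to 2000 UMIs 88 were higher and 161 lower. Without the Aire+/+ isotype condition 315 were higher and 299 lower, so that which side is larger depends on that condition.

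The gene furthest above the tumor was S1pr5, which had 2.52, 3.24, 2.37 and 0.889 CPM in tumor cells, log2 ratios of 4.9997, 5.48, 6.95 and 6.65. It was found in 1.67%, 3.07%, 0.943% and 0.593% of the tumor cells. Rasgrp2, which activates integrins in circulating cells, was at 296, 385, 319 and 422 CPM in spleen and 32.5, 33.1, 34.8 and 54.2 CPM in tumor. Itga4, an integrin chain for binding to vessels, had log2 ratios of 2.93, 2.52, 3.24 and 3.11. All 3 were higher in spleen in each condition. Rap1gap2, a regulator of the same integrin pathway, and Tspan32, a tetraspanin, were among the next genes. Of 18 trafficking receptors 9 were higher in spleen and 1 lower, Cxcr4, with a median log2 ratio of 1.49 beside the all-gene median of 0.21.

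Granule genes divided by tissue. Gzmb was at 6271, 7017, 7884 and 6189.8 CPM in tumor cells, and splenic cells had log2 ratios of -3.13, -3.32, -2.96 and -2.96. Prf1 had log2 ratios of -1.78, -1.16, -1.53 and -1.68. Gzmf, a granzyme of strongly stimulated cells, was at 702, 1574, 1303 and 1303 CPM in tumor cells and 0 UMIs in spleen, at least 69.5-fold, 87.2-fold, 461-fold and 442-fold lower. Gzmc, another such granzyme, had 0, 0, 1 and 0 UMIs in splenic cells against 1566, 1974, 1087 and 775 CPM. Each of these genes was lower in spleen in every condition. Gzmk did not follow them, with log2 ratios of -0.03, 0.31, 0.78 and 0.74. Of 15 granule genes without Gzma, 1 was higher in spleen, Gzmm, and 6 lower, with a median of -0.93.

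Genes of recent stimulation were low in splenic cells. Rgs16, a brake on chemokine receptors, had 0, 1, 4 and 5 UMIs in spleen against 1123, 1090.3, 886 and 603 CPM in tumor cells. Tnfrsf9, the costimulatory receptor 4-1BB, was at 10.1, 12.04, 13.2 and 5.89 CPM against 1231, 1278, 1312 and 976 CPM. Ctla4, an inhibitory receptor, was at 6.73, 6.02, 7.54 and 4.91 CPM against 406, 515, 515 and 509.6 CPM. Splenic cells were lower for all 3 genes in every condition, as they were for Ccl3 and Xcl1. Of 15 immediate early genes 0 were higher and 15 lower, with a median of -3.72, of 16 interferon response genes 0 and 13, with a median of -2.33, and of 10 inhibitory receptors 0 and 6, with a median of -1.55. Cytokine genes other than Ccl5 were lower in 8 of 11 and higher in 0, with a median of -2.88. Immediate early genes respond to handling as well as to antigen, and which of these they read here was not tested.

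Of 17 cell cycle genes 1 was past 2-fold higher in spleen and 0 lower, with a median of 0.61. Their sums were 3241, 3388.5, 4870 and 4480 CPM in spleen and 2818, 2250, 2380 and 2331 CPM in tumor. The spleen sum was thus higher in each condition, by more in the Aire-/- conditions. Naive and memory factors were higher in 4 of 11 (Tcf7, Lef1, Klf2 and Klf3) and lower in 0, with a median of 0.92, and S100, annexin and cytoskeleton genes higher in 3 of 20 and lower in 1, with a median of 0.58. Residency, survival and effector factor lists were lower in 4 of 8, 5 of 9 and 4 of 12, and higher in 0 of each, with medians of -2.75, -1.56 and -0.17.

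**Figure D3:**
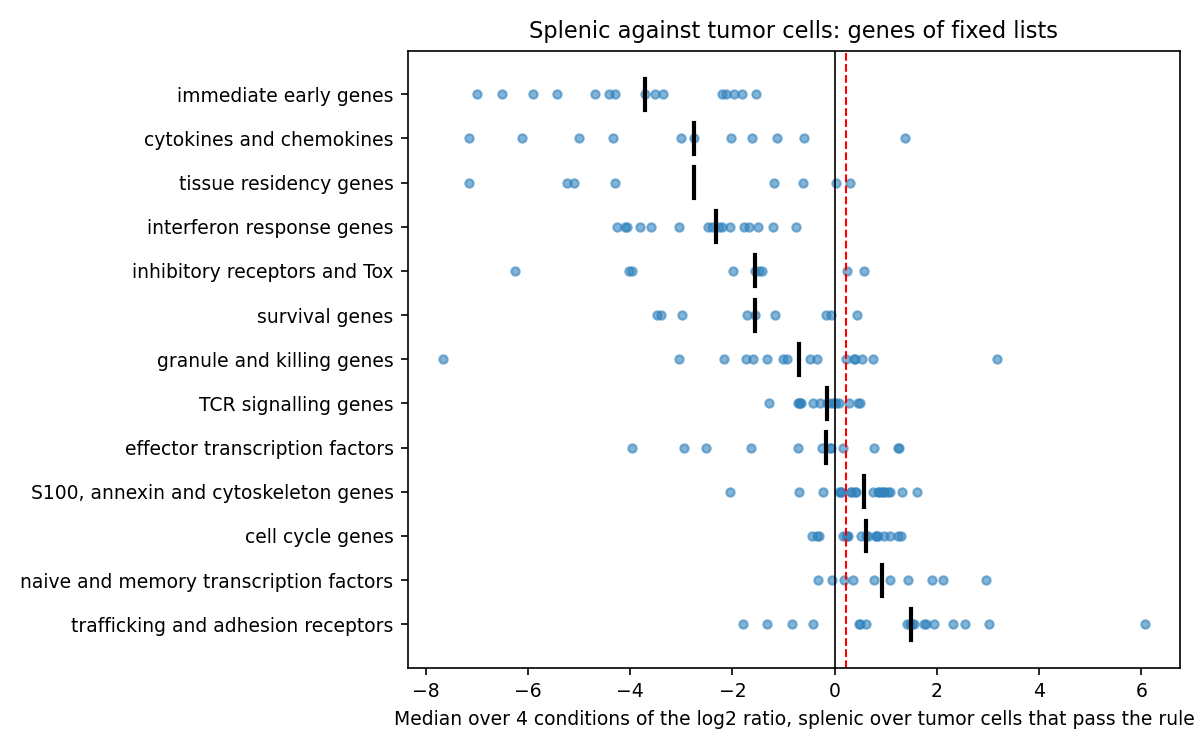
Median over the 4 conditions of the log2 ratio of CPM in splenic over tumor cells that pass the same rule, 1 point per gene of 13 gene lists, rule genes included, with a black bar for the median of each list and a dashed red line for the median over all genes, 0.21. The 15 immediate early genes all lie below 0.

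The CD45+ spleen libraries held 20 cells that passed the rule, with 82471 UMIs, and 520 Ccl5-negative cells. They are a separate sort and capture from spleens of the same 4 conditions, possibly of the same mice, and were summed because of the small number. Gzmk had 72 UMIs in these cells and 0 in Ccl5-negative cells, a log2 ratio of at least 9.87 with that 0 set to 3 UMIs. Cx3cr1 had a log2 ratio of 6.75 (5.80 to 7.79) and Itgb1 one of 3.85 (3.51 to 4.19), both below their medians of 10.50 and 4.58 in the CD8+ libraries and in the same direction. Of the 10 genes furthest above and the 10 furthest below Ccl5-negative cells in the CD8+ libraries, 10 and 10 lay in the same direction here, though 8 of the low genes had 0 UMIs. Of the high genes, Gzmk, Klre1, S1pr5 and Ifitm1 had 0 UMIs in Ccl5-negative cells. The genes were extremes of the same contrast and the cells passed the same rule, so that this was close to fixed in advance. It is no independent check, and the share of all genes in the same direction is not given. Cell cycle genes did not repeat in these 20 cells. Top2a had a log2 ratio of 0.20 (-2.88 to 2.11) against a median of 4.64 in the CD8+ libraries, Stmn1, a gene of dividing cells, 0.90 (-0.57 to 2.07) against 3.77, and Cdk1, Ccnb2, Rrm2 and Ube2c had 0 UMIs. Ifitm3, a relative of Ifitm1, had 0.43 (-1.88 to 2.02) against 6.52.

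Conditions were next compared within effector cells, 1 library against 1 library. Genotype was read under each treatment, and the comparison asks whether the larger Aire-/- group also differs in its transcripts. The ratio intervals cover counting error only, so that any gene may reflect the pool of mice. Under isotype, of 3675 genes 132 (3.59%) were past 2-fold higher and 37 (1.01%) past 2-fold lower in Aire-/- cells, 1 of them a rule gene. Under anti-PD1, of 3262 genes 144 (4.41%) were past 2-fold higher and 50 (1.53%) past 2-fold lower, and 184 and 35 with median-of-ratios scaling. The medians over genes were 0.03 in both. Either direction together, effector cells had 4.6% and 5.95% of genes past 2-fold, memory-like cells 0.672% and 1.04%, and Ccl5-negative cells 0.973% and 1.18%. Effector cells had far fewer UMIs than the other populations, and how far this accounts for their larger shares was not tested. With cells thinned to 2000 UMIs the counts were 33 higher and 3 lower under isotype and 40 and 10 under anti-PD1, and with at least 200 UMIs 17 and 2 and 7 and 0. Removing cells over 2.5 times the median UMIs left 19 and 31 lower genes. With no limit on UMIs 896 genes were higher and 883 lower under isotype, and 652 higher and 1354 lower under anti-PD1, so that the excess of higher genes depends on that limit.

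In 3144 genes compared under both treatments, 19 (0.604%) were higher in each and 2 (0.0636%) lower in each, Cops4 and Rnaset2b. The 19 included histone genes, which are transcribed during DNA synthesis, and the dividing-cell genes Mki67, Top2a, Cdk1, Stmn1 and Nusap1. Hist1h1b, a linker histone, had 242 UMIs in 18 Aire-/- isotype cells and 2 in Aire+/+ isotype cells, a log2 ratio of 5.08 (3.21 to 8.14), and 4.51 (2.01 to 9.83) under anti-PD1. Mki67 had log2 ratios of 1.51 (0.79 to 2.32) and 1.94 (0.54 to 3.84), and Top2a of 1.77 (1.19 to 2.41) and 3.20 (1.82 to 5.09). These ratios were positive under both treatments, from 21 Aire-/- cells with Mki67 in each and 3 Aire+/+ cells in each. A few cells thus carry each Aire+/+ value. Of 16 cell cycle genes 9 were higher and 0 lower under isotype, with a median of 1.25, and 6 and 0 under anti-PD1, with a median of 0.75. The UMI limit was summed over both libraries, and most effector UMIs were in the Aire-/- library. Genes high in Aire-/- cells, such as Hist1h1b, therefore pass it more readily than genes equally high in Aire+/+ cells. Of the 17 cell cycle genes with a row, 16 passed it here and 6 between the Aire+/+ libraries. How far the limit accounts for the gene counts was not tested. The share of cells with a UMI of Mki67 or Top2a was 19.4% against 15% under isotype and 18.95% against 16.7% under anti-PD1, with wide overlap of the intervals, and 11.7% against 5% and 10.7% against 6.897% after thinning.

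Rnaset2b, a ribonuclease, was lower in Aire-/- effector cells with log2 ratios of -3.57 (-4.51 to -2.72) and -2.74 (-3.47 to -2.02). It was also lower in Ccl5-negative cells, at -1.41 and -1.16, and in memory-like cells. Dynlt1b, a dynein light chain and 1 of the 19 genes, had a log2 ratio of 3.23 (1.34 to 6.29) under anti-PD1 and 1.42 in Ccl5-negative cells. These genes therefore differed between the libraries in resting cells as well as in effector cells.

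S1pr5 and Cx3cr1 were the 2 of 16 trafficking receptors past 2-fold higher in Aire-/- cells under isotype, with a list median of 0.16, and 0 were under anti-PD1. S1pr5 was at 292 CPM in Aire-/- and 80.8 CPM in Aire+/+ isotype cells, a log2 ratio of 1.85 (1.25 to 2.52), and Cx3cr1 at 381 and 162 CPM, a ratio of 1.24 (0.80 to 1.70). Under anti-PD1 the ratios were -0.69 (-1.35 to 0.02) for S1pr5 and -0.48 (-0.90 to -0.04) for Cx3cr1. The ratios were positive with the isotype antibody and negative with anti-PD1, and the difference between treatments was not tested. Gzmk had ratios of 1.17 (0.81 to 1.55) and 0.61 (0.22 to 1.02), and Gzmb of 0.50 (0.29 to 0.72) and 0.17 (-0.11 to 0.46). Of 14 granule genes without Gzma, 1 was higher and 1, Gzmm, lower under isotype, and 0 in either direction under anti-PD1.

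The Klrg1-positive share of effector cells, described below, was 63.6% in Aire-/- and 37.5% in Aire+/+ isotype cells. Within Klrg1-positive cells the isotype ratios were 1.96 (1.13 to 2.93) for S1pr5, 1.76 (1.06 to 2.56) for Cx3cr1 and 1.20 (0.86 to 1.57) for Gzmb. Within Klrg1-negative cells they were 0.21 (-0.42 to 0.87) for Cx3cr1 and -1.16 (-1.52 to -0.79) for Gzmb, while S1pr5 had 37 and 12 UMIs, too few for the limit. Log2 ratios above 1 for Cx3cr1 and Gzmb were thus seen within Klrg1-positive and not within Klrg1-negative cells.

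Treatment was read in each genotype from the same libraries. Anti-PD1 blocks an inhibitory receptor that splenic effector cells transcribed above the level of Ccl5-negative cells in every library. In Aire-/- effector cells Pdcd1 itself was past 2-fold higher under anti-PD1, with a log2 ratio of 1.21 (0.47 to 1.99). Within Klrg1-negative cells, which were a larger share of that library, its ratio was 0.13 (-0.68 to 0.99). In Aire+/+ cells, of 1336 genes 10 (0.749%) were past 2-fold higher and 13 (0.973%) past 2-fold lower under anti-PD1. The median over genes was -0.04, and median-of-ratios scaling moved it to -0.14 with 4 genes higher and 20 lower. Removing the 3 and 1 cells over 2.5 times the median UMIs left 2 genes higher and 5 lower, and with at least 200 UMIs 0 genes were past 2-fold. With no limit on UMIs 1147 were higher and 732 lower. In Aire-/- cells, of 4993 genes 38 (0.761%) were past 2-fold higher and 41 (0.821%) past 2-fold lower, 1 of them a rule gene, with a median of -0.03, and 15 and 12 with cells thinned to 2000 UMIs. With no limit on UMIs 743 were higher and 593 lower. The share in either direction was 1.72% and 1.58% in effector cells, 0.577% and 0.614% in memory-like cells and 0.399% and 0.455% in Ccl5-negative cells.

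In Aire-/- effector cells S1pr5 had a log2 ratio of -1.71 (-2.06 to -1.37) for anti-PD1 over isotype, and Klrg1, a rule gene, one of -1.58 (-1.84 to -1.33). Itgae, the integrin alpha E chain by which cells bind epithelium, was at 217 and 80.1 CPM, a ratio of 1.44 (1.07 to 1.82). Ifitm2, a relative of Ifitm1, had a ratio of 1.86 (1.57 to 2.15) and Ccr8, a chemokine receptor for skin, one of 1.88 (0.97 to 2.90). S1pr5 and Klrg1 were lower, and Itgae, Ifitm2 and Ccr8 higher, in the anti-PD1 library, which also had a smaller share of Klrg1-positive cells, 36.6% against 63.6%. Within Klrg1-negative cells alone the ratios were 0.33 (-0.04 to 0.72) for Itgae, 0.68 (0.39 to 0.97) for Ifitm2 and 0.71 (-0.21 to 1.73) for Ccr8. S1pr5 was lower within each kind, at -1.01 (-1.42 to -0.62) in Klrg1-positive and -1.61 (-2.41 to -0.84) in Klrg1-negative cells. Cd74, a chaperone of antigen presentation, had a ratio of 1.95 (1.39 to 2.54), with 43 of its 126 UMIs in 1 cell. The lowest genes were histones, such as Hist1h2ah at -4.35 (-5.69 to -3.27), with 54 of 149 isotype UMIs in 1 cell.

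In Aire+/+ effector cells Itgae was at 169 and 80.8 CPM, a ratio of 1.06 (0.22 to 1.91). It was the 1 gene of 1335 (0.0749%) past 2-fold higher in both genotypes, and 0 (0%) were lower in both. Within Klrg1-negative cells its ratio was 0.97 (0.13 to 1.82) in Aire+/+ and 0.33 (-0.04 to 0.72) in Aire-/- mice, past 2-fold in neither. Gzmm, a granzyme of innate-like killing, had 5 UMIs under anti-PD1 and 59 under isotype, a ratio of -2.72 (-4.40 to -1.42), and Rrm2, a gene of nucleotide synthesis, 6 and 51, with 41 of the latter in 1 cell. Il18rap, a subunit of the interleukin 18 receptor, had a ratio of 1.30 (0.50 to 2.12) and Cx3cr1 one of 1.09 (0.51 to 1.67), or 0.70 (-0.07 to 1.48) within Klrg1-negative cells. In Aire-/- effector cells Il18rap went the opposite way, past 2-fold lower under anti-PD1. The Aire+/+ values come from 40 and 30 cells. Itgae was found in 15%, 30%, 16.97% and 38.6% of effector cells of the 4 libraries and in 0.0728%, 0.0706%, 0% and 0.238% of B cells. After thinning to 2000 UMIs its effector shares were 10%, 17.2%, 9.20% and 26%, against 0%, 0%, 0% and 0.120% of B cells, and were higher under anti-PD1 in each genotype at both depths. A B cell count of 0 allows a share of up to 0.277% at full depth and 0.283% after thinning. Itgae is also transcribed by resting CD8 T cells, and was found in 26.03%, 27.5%, 26.7% and 28.9% of Ccl5-negative cells, where its anti-PD1 over isotype ratio was 0.17 in Aire+/+ and 0.28 in Aire-/- mice. The effector share was below that of Ccl5-negative cells in both isotype libraries, at a lower median depth. By level, the median log2 ratio of Itgae in effector over Ccl5-negative cells of the 4 CD8+ libraries was 0.84.

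Klrg1 marks cells in the most advanced effector state, and the members were split by it after their values had been seen. Klrg1 is a rule gene, so that cells without it entered by Gzma, and a cell with no Klrg1 UMI may still express it. Cells with at least 1 Klrg1 UMI numbered 15, 9, 105 and 56, or 37.5%, 30%, 63.6% (55.8 to 71.0) and 36.6% (29.0 to 44.8) of effector cells. Thinned to 2000 UMIs, 22.5%, 20.7%, 49.7% and 22.7% had a Klrg1 UMI, against 0.0735%, 0%, 0% and 0.0601% of B cells. At full depth the B cell shares were 0.0728%, 0.0706%, 0% and 0.298%, and a 0 allows up to 0.277% there and 0.283% after thinning. The Aire-/- isotype library had the highest share at both depths.

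As a share of CD8 T cells, Klrg1-positive effector cells were 0.543%, 0.317%, 4.63% and 2.21%, and Klrg1-negative ones 0.905%, 0.740%, 2.64% and 3.83%. Both kinds had larger shares in the Aire-/- libraries. The Aire-/- over Aire+/+ ratios for Klrg1-positive cells were 8.52 (4.94 to 15.8) with the isotype antibody and 6.98 (3.43 to 16.0) with anti-PD1, and 2.92 (1.80 to 4.86) and 5.18 (3.21 to 8.74) for Klrg1-negative cells. In Aire-/- spleens the anti-PD1 share was 0.478 (0.339 to 0.667) of the isotype share for Klrg1-positive cells and 1.45 (1.04 to 2.03) times it for Klrg1-negative cells. The composition of the effector group thus differed between the 2 Aire-/- libraries while its total differed less, and this has no replicate check.

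In the 2 Aire-/- libraries, of 4993 genes 106 (2.12%) were past 2-fold higher and 63 (1.26%) past 2-fold lower in Klrg1-positive than in Klrg1-negative cells of both. S1pr5 was found in 75.2% and 57.1% of Klrg1-positive cells and in 25.0% and 13.4% of Klrg1-negative cells of the isotype and anti-PD1 libraries. Zeb2 was found in 74.3% and 53.6% against 26.7% and 14.4%, and in 0% and 0.1603% of Ccl5-negative cells, where the 0 allows up to 0.223%. Eomes, a factor related to T-bet, was found in 34.3% and 46.4% against 6.67% and 10.3%, and in 13.5% and 14.5% of Ccl5-negative and 0.0752% and 0.238% of B cells. Zeb2 is also transcribed by B cells, which are no background for it. These 3 genes, with Cx3cr1, Gzmk and Itga4, were higher in Klrg1-positive cells of both Aire-/- libraries. The Aire+/+ isotype library did not follow for Cx3cr1, found in 46.7% of its 15 Klrg1-positive and 56% of its 25 Klrg1-negative cells, against 88.9% and 57.1% under anti-PD1. Median UMIs were 5473 and 3973 in Klrg1-positive and 4609 and 5502 in Klrg1-negative cells, so that depth favoured a different group in each library.

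The Klrg1-negative cells had a different set. Itgae was found in 45% and 58.8% of them and in 0.952% and 3.57% of Klrg1-positive cells, and Cxcr6, a receptor of cells kept in tissue, in 86.7% and 94.8% against 38.1% and 46.4%. Cxcr6 was found in 27.9% and 28.01% of Ccl5-negative and 0.0752% and 0.0595% of B cells of these conditions. Ifitm1 was found in 56.7% and 53.6% of Klrg1-negative cells and in 0 of 105 and 2 of 56 Klrg1-positive cells, where the 0 allows a share of up to 3.45%. Ifitm1, Itgae and Cxcr6 were thus far more common in Klrg1-negative cells of both libraries. In Aire+/+ mice Cxcr6 was found in 72% and 81.0% of Klrg1-negative and 66.7% and 22.2% of Klrg1-positive cells, nearly equal under isotype. Over the 4 libraries Ifitm1 and Klrg1 were found together in 5 of 388 cells, Ifitm1 without Klrg1 in 114, Klrg1 without Ifitm1 in 180 and neither in 89. In the 15 and 9 Klrg1-positive cells of the Aire+/+ libraries 2 and 1 had Ifitm1, against 14 of 25 and 14 of 21 Klrg1-negative cells. Ifitm1 was found in 0 B cells of all 4 CD45+ libraries, which allows up to 0.277% in any of them. Thinned to 2000 UMIs, 40%, 51.7%, 20.2% and 34.7% of effector cells had Ifitm1.

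Of lists read in the split, tissue residency genes were lower in 3 of 5 (Itgae, Itga1 and Cxcr6) and higher in 0. Of 16 cell cycle genes 9 were higher in Klrg1-positive cells and 0 lower, and Mki67 or Top2a was found in 23 of 105 and 9 of 56 Klrg1-positive cells against 9 of 60 and 20 of 97 Klrg1-negative cells. Trafficking receptors were higher in 3 of 16 and lower in 1, Itgb1. Pdcd1 was the 1 of 6 inhibitory receptors that was lower, found in 3.81% and 10.7% of Klrg1-positive and 20% and 29.9% of Klrg1-negative cells, and in 0.363% and 0.748% of Ccl5-negative cells. In Aire+/+ mice Pdcd1 was found in 13.3% and 11.1% of Klrg1-positive and 12% and 33.3% of Klrg1-negative cells. By level Gzmb was higher in Klrg1-positive cells of both Aire-/- libraries, with log2 ratios of 1.78 and 0.65. Its shares of 83.8% and 71.4% against 66.7% and 84.5% had the larger value in the deeper group of each library. In Aire+/+ cells the log2 ratios of Gzmb were -0.58 and -0.05.

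**Figure D4:**
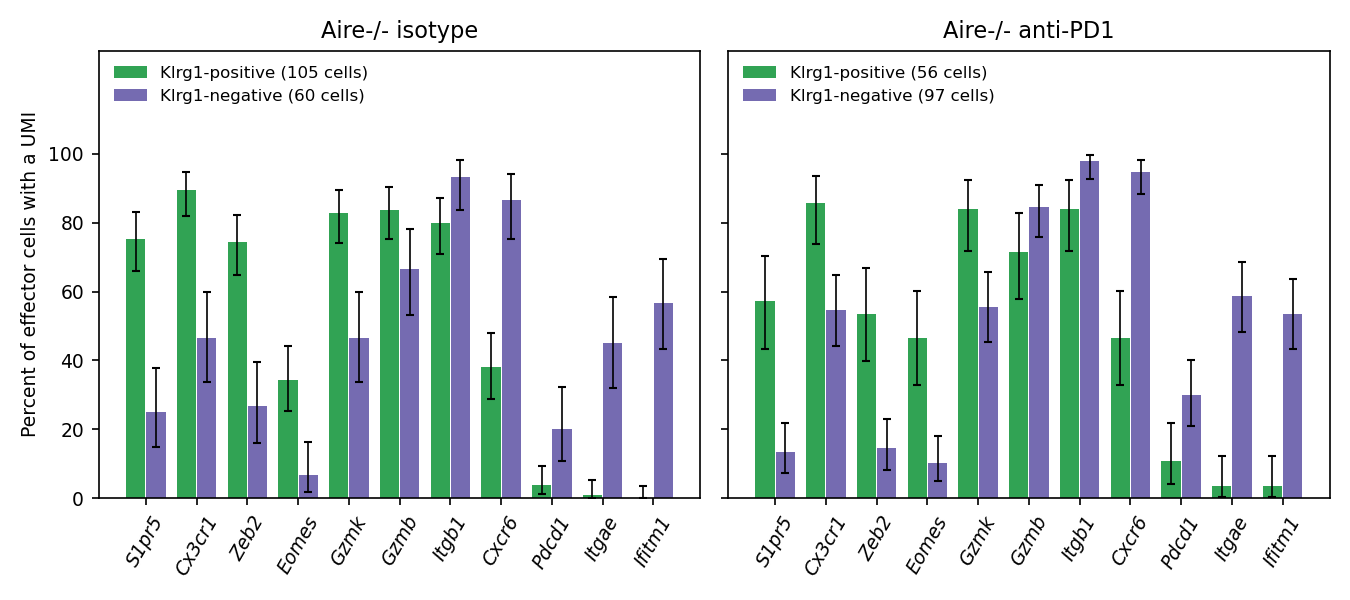
Percent of Klrg1-positive and Klrg1-negative effector cells with at least 1 UMI of 11 genes in the 2 Aire-/- spleen CD8+ libraries, with lines for the Clopper-Pearson 95% interval. Ifitm1 was found in 0% and 3.57% of Klrg1-positive and 56.7% and 53.6% of Klrg1-negative cells.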

How the data were processed

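The deposited values are UMI counts per gene and barcode, which the authors made from 10x reads against GRCm38 and which were read here without change. No other cell filter was applied and doublets were not removed. Rows of 1 symbol were summed. Trac has no row. Members, comparison groups and 22 gene lists were chosen with earlier results of these data known. UMIs were summed per population and library and divided by their total as CPM. Genes needed 50 UMIs over the populations compared. A side at 0 took 3 UMIs, and a ratio was left out where that gave no bound. Intervals are Clopper-Pearson for shares and conditional exact for ratios. Named genes were the rule genes and markers, up to 4 members of each list by median ratio, the 10 furthest genes in each direction against each splenic group, the 8 against tumor and the 5 per condition comparison, and those past 2-fold in both. Others were named after their values were seen. The scripts were tested on simulated data and used Python 3.11.15, numpy 2.4.6, scipy 1.17.1 and matplotlib 3.10.9.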

Additional observations from a re-analysis of the deposited data

How the results depend on the processing

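Of 12 alternatives for the share of effector cells, none moved a ratio between conditions outside its main interval. The Aire-/- over Aire+/+ ratio ran from 3.70 to 5.72 under isotype and from 3.86 to 5.85 under anti-PD1, and the anti-PD1 over isotype ratio from 0.715 to 0.826 in Aire+/+ and from 0.743 to 0.836 in Aire-/- mice. With a Gzma and Klrg1 sum of at least 1 the Aire+/+ anti-PD1 share was 1.586%. With no limit on other-cell markers the Aire+/+ shares were 2.071% and 1.595%. Leaving out members with Mki67 or Top2a, an alternative chosen after seeing the data, gave Aire-/- shares of 5.862% and 4.899%, from fewer members by construction. No share ratio turned its direction.

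Gene counts moved with depth and gene filters, which change how many genes are compared. Against Ccl5-negative cells, 447 genes were higher with at least 200 UMIs, 379 were higher and 52 lower with cells thinned to 2000 UMIs, and 237 lower with median-of-ratios scaling. Leaving out 1 library gave 676 to 800 higher and 121 to 214 lower. Against memory-like cells, 219 were higher with at least 200 UMIs, 161 higher and 35 lower when thinned, and 255 higher and 187 lower with median-of-ratios scaling. Leaving out 1 library gave 381 to 486 higher and 90 to 148 lower. Against tumor cells, 118 were higher with at least 200 UMIs, 88 higher and 161 lower when thinned, and 134 higher with median-of-ratios scaling. Leaving out 1 condition gave 236 to 315 higher and 279 to 367 lower, and without Aire+/+ isotype the larger count changed sides, at 315 higher and 299 lower.

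For Aire-/- over Aire+/+ under isotype, 522 genes were higher and 197 lower with at least 20 UMIs, 17 and 2 with 200, 896 and 883 with no filter, and 33 and 3 when thinned. Removing cells over 2.5 times the median UMIs gave 19 lower, and leaving out cycling members 71 higher and 12 lower. Under anti-PD1 the counts were 461 and 283, 7 and 0, 652 and 1354, and 40 and 10 in the same settings, with 31 lower and 24 lower in the last pair.

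For anti-PD1 over isotype in Aire+/+ cells they were 116 and 153, 0 and 0, 1147 and 732, and 2 and 1. Removing cells over 2.5 times the median gave 2 higher and 5 lower, leaving out cycling members 6 higher, median-of-ratios scaling 4 higher and 20 lower, and the mean of per-cell CPM 18 higher. In Aire-/- cells they were 168 and 191, 4 and 5, 743 and 593, and 15 and 12, with 22 higher and 25 lower without cycling members. With no UMI filter the larger of the higher and lower counts changed sides under anti-PD1 for genotype and in both genotypes for treatment. For treatment it also changed sides when thinned, with the mean of per-cell CPM in Aire+/+ (18 and 15), and without large cells in Aire-/- mice (36 and 29), so that neither balance holds. The cause of the other shifts was not tested.

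No paired analysis was possible because each condition has only replicate 1 and no result comes from a test. Cell groups and tissues were compared within each library or condition. Pools of mice, the depth of the Aire+/+ effector cells and free RNA limit single genes.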
